A study of Saccharomyces cerevisiae with 39 samples.

Results

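The 53 genes described here are the UTP, NOP and RRP genes of Saccharomyces cerevisiae, most of which encode factors that make ribosomes. A gene was taken if its standard symbol is UTP, NOP or RRP followed by a number, which gave 18 UTP, 17 NOP and 18 RRP genes among 6186 features in the table. The symbols came from matching the table's systematic names to NCBI RefSeq. All 53 genes passed the filter on low counts, and the lowest count of any of them in a library was 90. Together they took between 0.124% and 0.363% of a library's counts.

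In the nucleolus, RNA polymerase I transcribes a long ribosomal RNA precursor that is folded, modified and cut while proteins assemble on it. UTP proteins, named for their link to the U3 small nucleolar RNA, are subunits of the small-subunit processome, the large particle in which the small ribosomal subunit begins to form. NOP proteins are nucleolar proteins, among them the core proteins of small nucleolar ribonucleoproteins (snoRNPs), which guide modification and cutting. RRP proteins act in ribosomal RNA processing, and several of them are subunits of the RNA exosome, which trims and degrades RNA from its 3′ end. In budding yeast, transcription of these genes is known to be high in rich medium and to drop when nutrients run out, and sporulation medium is such a condition.

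The libraries were poly(A)-selected RNA sequencing of MATa/alpha diploids, 3 libraries from each of 13 strains, and compared altered forms of Pho92, which reads the mRNA mark N6-methyladenosine (m6A) through its YTH domain; the title places the question in m6A-dependent mRNA turnover. Every strain carried the markers lys2 and ura3, the trp1::hisG, his3::hisG and leu2::hisG disruptions and ho::LYS2. WT kept its own PHO92, pho92_null had pho92::HYG, and the other 11 strains lacked the endogenous gene and carried an HA-tagged PHO92 at trp1, driven by the CUP1 promoter, which copper switches on. It was unaltered in CUP1_WT and carried the substitutions W177A, W5A, W18A, or W5A with W18A in the strains of those names. It lacked residues 1 to 70 in del1_70, 28 to 52 in del28_52, 110 to 155 in del110_155, and both 28 to 52 and 130 to 155 in del28_52_130_155. W5A_W18A_del28_52 joined both substitutions to the deletion of 28 to 52. The titles of W5A_W18A_del28_52_110_155 give both substitutions and 2 deletions, whereas its genotype gives the deletions alone. All strains, WT and pho92_null included, received 50 µM copper sulphate 3 h after transfer to sporulation medium. The labels speak of an arrest in early meiosis, name no arrest allele and give no time of collection. They do not say whether the 3 libraries of a strain were separate cultures. The p-values therefore measure only the spread between libraries within strains, pooled over the 13 strains, which may be technical.

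Each library held between 15928411 and 37186964 counts (median 20694394). Levels are given as CPM, the count scaled to a library total of 1000000 and adjusted between libraries by the trimmed mean of M-values (TMM). PHO92 itself, read first as a check of the labels, was at 938 ± 127 CPM in WT (SD, n = 3), at 1.13 ± 1.15 CPM in pho92_null and at 9745 ± 1519 CPM in CUP1_WT. It was at 14790 ± 659 CPM in W5A, 14852 ± 1959 CPM in W5A_W18A and 5543 ± 150 CPM in W5A_W18A_del28_52_110_155, and between those bounds in the other copper-induced strains. All 12 early meiotic genes of a marker list (such as IME2, HOP1 and SPO11) were detected in every library, and the haploid mating gene list summed to between 99.7 and 242 CPM per library. Replicate 3 of del110_155 stood apart, with 4555 CPM summed over the early meiotic genes against 16589 and 17818 CPM in its replicates 1 and 2. Replicate 2 of pho92_null stood apart in the UTP, NOP and RRP genes themselves. Counts that lead a comparison with these strains are given with and without them.

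The promoters of these genes are known in yeast for a pair of sequence elements, PAC (bound by the repressors Dot6 and Tod6) and RRPE (bound by Stb3). The 300 bases before each start codon in the reference genome (RefSeq, build R64, strain S288C) were searched on both strands for the PAC core GCGATGAG, whose other strand reads CTCATCGC, and for the RRPE core AAAAATTTT, whose other strand reads AAAATTTTT. PAC and RRPE matches were counted separately, and a stretch that holds the RRPE core on both strands counts as 2 overlapping matches. The PAC core was found before 23 of 53 genes (43.4%) against 4.05% of 6007 nuclear protein-coding genes. The RRPE core was found before 26 of 53 (49.1%) against 7.34%, both cores before 12 (22.6%) against 1.71%, and neither before 16. The 6 stretches below, each 100 bases long and ending 81 bases before the start codon, show how the cores lie in genes that lead the results. They are written 5′ to 3′ in the direction of the gene, with core matches in capitals. They were chosen after the values were seen, and the build behind the counts is not given in the sources used here.
RRP5, chrXIII:731204-731303, minus strand: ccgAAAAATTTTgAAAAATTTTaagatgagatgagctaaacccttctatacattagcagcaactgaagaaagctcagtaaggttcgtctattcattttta
NOP58, chrXV:898441-898540, minus strand: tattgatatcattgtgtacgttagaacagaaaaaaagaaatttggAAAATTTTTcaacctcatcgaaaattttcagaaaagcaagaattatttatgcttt
UTP10, chrX:217390-217489, minus strand: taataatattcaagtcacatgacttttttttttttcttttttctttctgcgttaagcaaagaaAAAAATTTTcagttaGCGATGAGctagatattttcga
NOP2, chrXIV:510360-510459, plus strand: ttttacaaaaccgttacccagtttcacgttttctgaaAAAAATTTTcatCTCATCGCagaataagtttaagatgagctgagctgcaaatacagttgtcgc
NOP13, chrXIV:308693-308792, minus strand: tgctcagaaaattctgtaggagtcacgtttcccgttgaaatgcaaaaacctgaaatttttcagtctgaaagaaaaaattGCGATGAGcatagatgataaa
RRP43, chrIII:193099-193198, minus strand: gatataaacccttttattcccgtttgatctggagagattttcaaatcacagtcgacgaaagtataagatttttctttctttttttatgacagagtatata
RRP5 shows 2 RRPE cores side by side, NOP58 shows 1, UTP10 and NOP2 show an RRPE core followed by a PAC core, NOP13 shows PAC alone, and RRP43 shows neither core in this stretch.

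The 24 PAC matches had a median distance of 124 bases from the start codon and the 33 RRPE matches a median of 134 bases. By role, the PAC core was found before 8 of 13 large-subunit factors, 3 of 4 genes of the UtpB subcomplex and none of the 5 snoRNP proteins, and the RRPE core before 5 of 6 UtpA genes and 3 of 5 snoRNP proteins. Of the 7 exosome subunits, 1 held a PAC core and 1 an RRPE core. A match describes the letters in this window and does not show that a factor binds there.

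**Figure D1:**
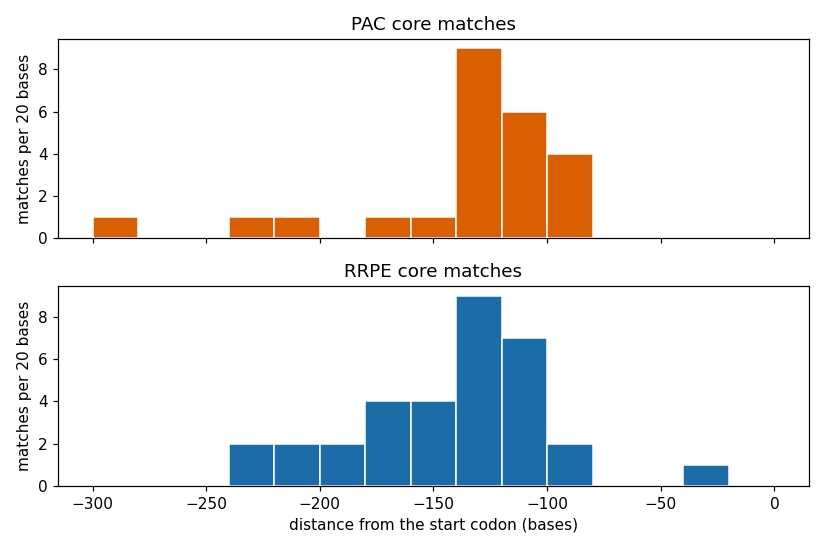
Distance of each PAC core (top) and RRPE core (bottom) match from the start codon, in bases, over the 53 promoters, as counts of matches per bin of 20 bases. The 24 PAC matches and 33 RRPE matches have medians of 124 and 134 bases before the start codon, and lie from 89 to 294 and from 34 to 226 bases before it.

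Levels per length ran from 8.39 to 84.9 CPM per kb of coding length. Averaged over the strains, NOP16, a large-subunit factor, was highest at 84.9 CPM per kb of coding length, followed by NOP1 (fibrillarin, the methyltransferase of box C/D snoRNPs) at 74.0 and RRP4 (a cap subunit of the exosome) at 67.9 CPM per kb. The lowest were UTP21 at 8.39, UTP22 at 9.35 and UTP13 at 9.89 CPM per kb, all subunits of the UtpB or UtpC subcomplexes of the processome. In bulk RNA, fewer cells that express a gene and less RNA per cell cannot be told apart.

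Summed over the 53 genes, the level was 1615 ± 217 CPM in WT, 2324 ± 757 CPM in pho92_null and 1758 ± 251 CPM in CUP1_WT (SD, n = 3 each). W5A was highest at 2988 ± 545 CPM, with libraries at 2378, 3160 and 3425 CPM, all above the highest CUP1_WT library at 2029 CPM. W5A_W18A was at 2648 ± 138 CPM and del110_155 at 2551 ± 688 CPM, the latter with replicate 3 at 3338 CPM and the others at 2060 and 2256 CPM. The strains W177A, W18A, del28_52 and W5A_W18A_del28_52_110_155 lay between 1655 and 1702 CPM, and del1_70, del28_52_130_155 and W5A_W18A_del28_52 between 1856 and 2270 CPM. In pho92_null, replicate 2 reached 3191 CPM whereas replicates 1 and 3 were at 1796 and 1985 CPM, inside the range of CUP1_WT.

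**Figure D2:**
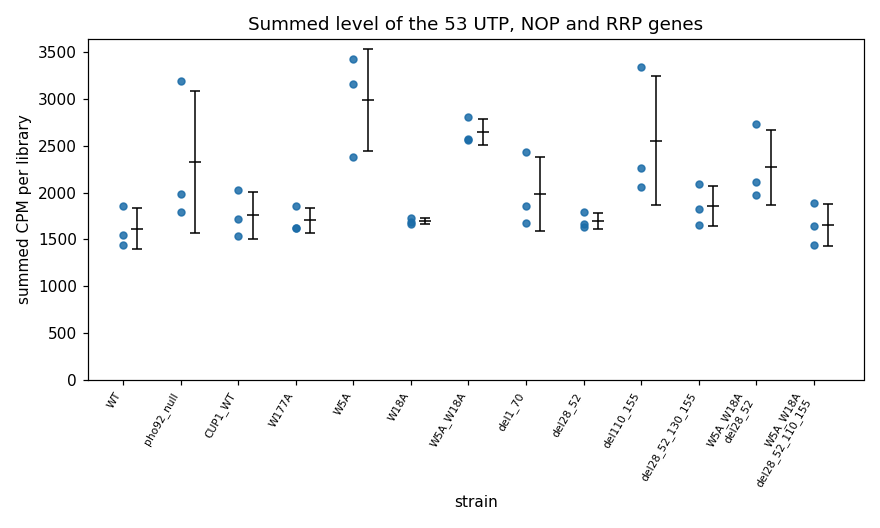
Summed CPM of the 53 UTP, NOP and RRP genes in each of 39 libraries (points) by strain, with the mean and SD of 3 libraries beside them. All W5A libraries (2378 to 3425 CPM) and W5A_W18A libraries (2563 to 2807 CPM) lie above the CUP1_WT libraries (1532 to 2029 CPM), and 1 library each of pho92_null and del110_155 stands above the others of its strain.

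Most of the genes varied with strain. Limma's moderated F test over the 13 strains passed for 49 of 53 genes at an adjusted p under 0.05, against 64.5% of the 5840 features tested, and between 46 and 51 genes passed when any 1 library was left out. The strain with the highest mean was W5A for 37 genes and del110_155 for 11, and this tally is not given over all features. The range of strain means on the log2 CPM scale was greatest for RRP3, a DEAD-box RNA helicase of the small-subunit pathway (2.19), NOP2, a methyltransferase of the large-subunit rRNA (1.87), and NOP56, a core box C/D snoRNP protein (1.80). It was smallest for RRP7, a UtpC subunit (0.29), NOP10, a small protein of box H/ACA snoRNPs (0.60), and RRP42, an exosome ring subunit (0.61). RRP7 was at 46.4 ± 3.1 CPM in CUP1_WT and 53.1 ± 5.6 CPM in W5A.

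**Figure D3:**
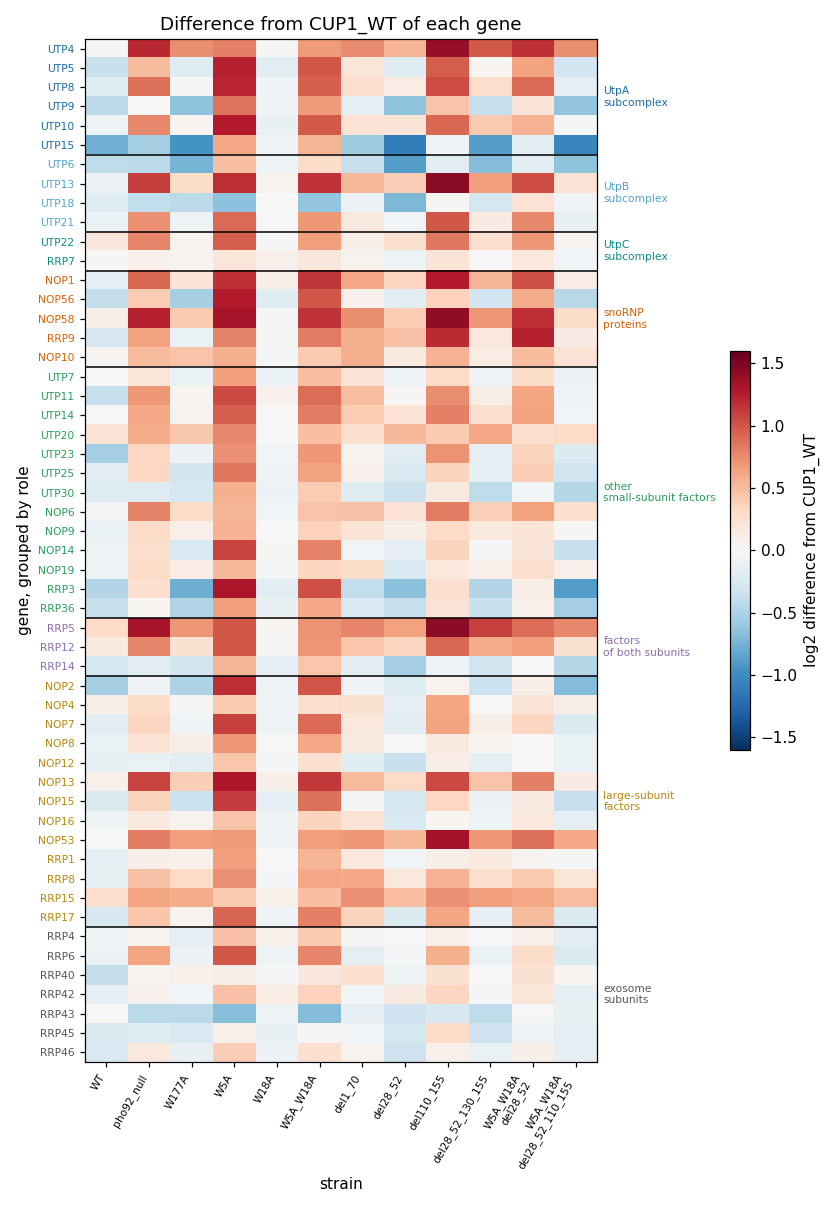
Log2 difference of each of the 53 genes (rows, grouped by role) in each strain (columns) from CUP1_WT, from the fit over all 39 libraries. Red is higher and blue lower than CUP1_WT. W5A is red for 51 of 53 genes, W18A is close to white throughout, and RRP43 and UTP18 are blue in W5A. Every column shares the CUP1_WT libraries.

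The first question was whether these genes differ between cells with and without Pho92. Of the 53 genes, 16 fell in CUP1_WT against pho92_null and none rose, with a median log2 difference of -0.33 against -0.03 over all features. Of all features 19.2% were called higher and 20.8% lower in this comparison, against 30.2% of the 53 genes lower. Calls are at an adjusted p under 0.05 from limma with Benjamini-Hochberg adjustment over all features. In WT against pho92_null, 20 genes fell and none rose, with a median of -0.47 against -0.04, where 14.8% of all features were called higher and 18.4% lower. Both comparisons share the pho92_null libraries.

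RRP5, a large RNA-binding protein needed for processing on the paths to both subunits, had the greatest fall in CUP1_WT. Its level was 26.5, 31.7 and 36.3 CPM in CUP1_WT, and pho92_null held it at 61.3, 124 and 63.0 CPM. Every CUP1_WT library lay below every pho92_null library, the difference was -1.32 ± 0.22 (log2 ± SE, adjusted p = 5.46e-05), and in WT, at 35.5, 35.0 and 46.0 CPM, it was -1.02 ± 0.22 (adjusted p = 0.00201). NOP58, a core protein of box C/D snoRNPs, was at 22.8, 21.8 and 42.2 CPM in CUP1_WT. In pho92_null it was at 48.5, 122 and 45.9 CPM, a difference of -1.23 ± 0.33 (adjusted p = 0.00452). UTP4, a WD40-repeat subunit of the UtpA subcomplex, was at 15.8, 18.9 and 21.0 CPM in CUP1_WT. The pho92_null libraries were at 31.2, 62.2 and 39.6 CPM, a difference of -1.20 ± 0.26 (adjusted p = 0.000884). For all 3 genes the groups did not overlap, and the pho92_null library far above its fellows was replicate 2. UTP13, a WD40-repeat subunit of UtpB, fell by 1.10 and NOP13, a nucleolar RNA-binding protein, fell by 1.08 on the log2 scale. In WT the 5 greatest falls were those of UTP13 (-1.19), UTP4 (-1.18), NOP58 (-1.13), UTP11 (-1.07), a processome subunit, and UTP8 (-1.07), a UtpA subunit.

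By role, the falls in CUP1_WT took in 3 of 6 UtpA genes, 1 of 4 UtpB genes, 1 of 2 UtpC genes, 2 of 5 snoRNP genes, 2 of 13 other small-subunit factors, 2 of 3 factors of both subunits, 4 of 13 large-subunit factors and 1 of 7 exosome subunits. Among the snoRNP genes NOP1 fell (-0.92 ± 0.33, adjusted p = 0.0271), whereas NOP56 was at -0.40 ± 0.32, RRP9 at -0.65 ± 0.37 and NOP10 at -0.50 ± 0.23 and did not pass. RRP12, which acts in export of both subunits, fell by 0.78, UTP10, the longest UtpA subunit, by 0.77, UTP22 by 0.78 and UTP20, a long scaffold protein of the processome, by 0.59. Large-subunit factors that fell were NOP13, NOP53 (a docking protein for the exosome on the large-subunit precursor, -0.81 ± 0.22), RRP15 (-0.63 ± 0.15) and RRP8, a methyltransferase (-0.46 ± 0.17). RRP6, the nuclear 3′ exonuclease of the exosome, fell by 0.64. NOP2 (0.06 ± 0.22), NOP7 (-0.35 ± 0.24), RRP4 (-0.04 ± 0.11), RRP7 (-0.07 ± 0.13), UTP21 (-0.73 ± 0.33) and UTP15, a UtpA subunit (0.53 ± 0.33), did not pass.

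The count of falls depended on single libraries. In CUP1_WT against pho92_null it was 6 calls (5 lower and 1 higher) without pho92_null replicate 2, 8 without CUP1_WT replicate 1 and 10 without CUP1_WT replicate 2. In WT against pho92_null it was 3 without pho92_null replicate 2, 7 without WT replicate 1 and 6 without WT replicate 2. RRP5, UTP4 and NOP53 kept their calls in CUP1_WT under every alternative run, leaving out any library included. Fitting only the 6 libraries compared left 3 calls in CUP1_WT and 0 in WT.

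Genes of the same pathway under other names were counted in CUP1_WT against pho92_null beside the 20.8% of all features called lower. Of 53 other pre-60S assembly factors 20 fell and none rose (median -0.49), and of 37 other small-subunit processome and pre-40S factors 8 fell and none rose (median -0.23), a share close to that of all features. Of 9 other snoRNP proteins 5 fell and 2 rose, of 14 RNA polymerase I genes 2 fell and 1 rose, and of 11 exosome and TRAMP genes outside the naming rule 2 fell and 1 rose, the falls of both lists being below the share of all features. The cytosolic ribosomal protein genes fell in 67 of 121 cases (median -1.03). Among 14 regulators of these genes, DOT6, SCH9 and SIN3 rose and CRF1 fell. In the haploid mating gene list 4 of 8 rose and 1 fell. Without pho92_null replicate 2 the falls were 10 of 53 pre-60S factors, 3 of 37 small-subunit factors, 3 of 9 snoRNP proteins, 0 of 14 RNA polymerase I genes and 7 of 121 ribosomal protein genes. Without CUP1_WT replicate 1 or replicate 2 the pre-60S falls were 11 and 10, the small-subunit falls 3 and 3, the RNA polymerase I falls 0 and 0, and the ribosomal protein falls 25 and 13. The 20.8% is from the full fit, and the share of all features is not given for these runs.

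CUP1_WT and WT gave no call among the 53 genes by limma, where 1.66% of all features were called. Unadjusted p-values were under 0.05 for 4 genes, limma-voom gave no call either, and 1 gene was called without WT replicate 3. The share of all features under that unadjusted threshold is not given. The median difference was 0.12. The W18A strain gave no call against CUP1_WT by limma or limma-voom and no gene with an unadjusted p under 0.05, with 0% of all features called and log2 differences between -0.19 and 0.12. Against pho92_null, W18A showed 16 falls, where 18% of all features were called higher and 20.4% lower, led by RRP5 (-1.29 ± 0.22) and NOP58 (-1.26 ± 0.33). That count was 5 without pho92_null replicate 2.

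The W5A substitution, near the amino terminus of Pho92, went with the widest rise. Against CUP1_WT, 43 of 53 genes rose and 1 fell, where 20.9% of all features were called higher and 18.1% lower. The median difference was 0.73 against 0.03 over all features, and 42 genes had all W5A libraries above all CUP1_WT libraries (25.2% of all features did). The rise took in 5 of 6 UtpA genes, 2 of 4 UtpB genes, 1 of 2 UtpC genes, 4 of 5 snoRNP genes, 12 of 13 other small-subunit factors, all 3 factors of both subunits and 12 of 13 large-subunit factors. Of the 7 exosome subunits, 4 rose and 1 fell, with a median of 0.39 against 0.80 over the 46 genes outside the exosome.

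NOP58 had the greatest rise in W5A. It was at 80.0, 88.4 and 46.2 CPM in W5A against 22.8, 21.8 and 42.2 CPM in CUP1_WT, a difference of 1.32 ± 0.33 (adjusted p = 0.00291). The groups did not overlap, although W5A replicate 3 was only slightly above CUP1_WT replicate 3. RRP3 was at 62.5, 61.6 and 34.3 CPM in W5A against 17.4, 18.0 and 28.2 CPM, a difference of 1.30 ± 0.34 (adjusted p = 0.00453). NOP2 was at 226, 256 and 163 CPM in W5A against 74.7, 91.7 and 118 CPM, a difference of 1.18 ± 0.22 (adjusted p = 0.000357). In each of these genes the lowest W5A library was replicate 3 and the highest CUP1_WT library was also replicate 3. UTP10 rose by 1.27 ± 0.27, NOP56 by 1.27 ± 0.32 and NOP13 by 1.29 ± 0.29. RRP5 rose by 0.99 ± 0.22, from a mean of 31.5 to 65.1 CPM.

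Further genes rose in W5A. NOP1 rose by 1.17 ± 0.33, NOP7, a large-subunit factor of the PeBoW complex, by 1.09 ± 0.24, RRP12 by 0.99 ± 0.24, UTP22 by 0.96 ± 0.29, UTP21 by 0.91 ± 0.33 and UTP20 by 0.77 ± 0.17. RRP8 rose by 0.73 ± 0.17, NOP53 by 0.68 ± 0.22 and NOP10 by 0.59 ± 0.23. RRP9, the U3-specific snoRNP protein, was at 0.79 ± 0.37, UTP15 at 0.61 ± 0.33 and RRP7 at 0.19 ± 0.13, and these did not pass. In the exosome, RRP6 rose by 1.00 ± 0.22 and RRP4 by 0.47 ± 0.11, and RRP42 and RRP46, ring subunits, rose by 0.47 and 0.39.

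RRP43, another ring subunit of the exosome, was the 1 gene that fell. RRP43 libraries were at 39.6, 43.5 and 39.4 CPM in W5A against 99.9, 61.5 and 45.9 CPM in CUP1_WT, a difference of -0.68 ± 0.23 (adjusted p = 0.0181). Of these strains the spread lay in CUP1_WT, where replicate 1 was more than 2-fold above replicate 3, and the call was lost without CUP1_WT replicate 1. RRP43 also declined from replicate 1 to 3 in WT (82.5, 69.0 and 48.5 CPM) and W18A (87.8, 59.3 and 45.7 CPM). The same order held in W5A_W18A_del28_52_110_155 (74.5, 60.9 and 48.6 CPM) and del1_70 (76.0, 54.6 and 52.2 CPM). It also held, over a narrower range, in del28_52 (54.3, 53.3 and 49.3 CPM), but not in pho92_null (44.2, 53.6 and 48.2 CPM). UTP18, a UtpB subunit, at -0.65 ± 0.30, did not pass.

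**Figure D4:**
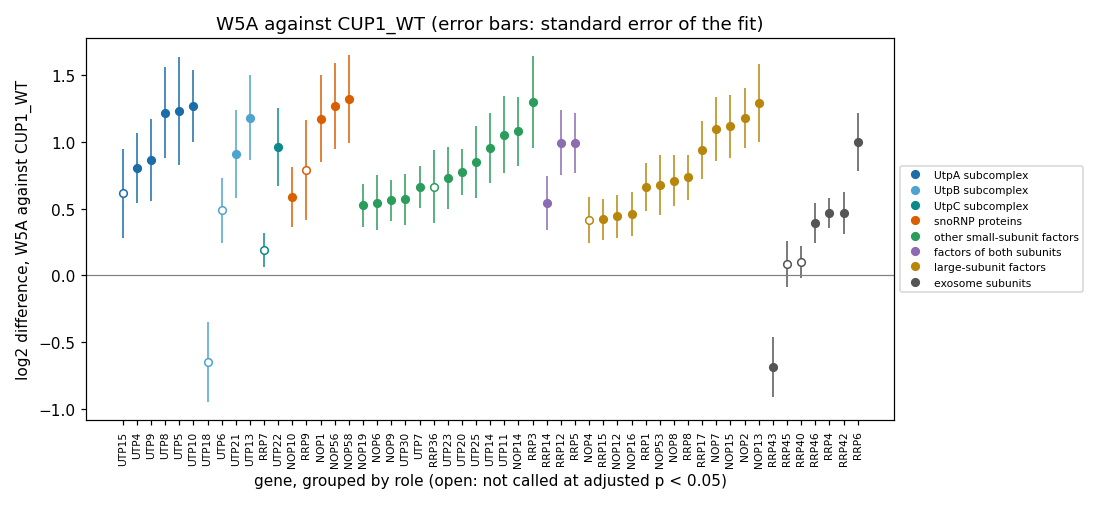
Log2 difference of each of the 53 genes in W5A against CUP1_WT, grouped by role, with the standard error of the fit as error bars. Filled points are called at an adjusted p under 0.05 and open points are not. Of the filled points 43 lie above 0 and 1, RRP43, lies below.

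The count of 44 calls in W5A against CUP1_WT was 19 without CUP1_WT replicate 1, 28 without CUP1_WT replicate 2 and 27 without W5A replicate 2. A fit of the 6 libraries alone gave 32 rises and 1 fall. NOP58, RRP3, NOP2, NOP13, NOP56, UTP10, RRP5, RRP6, RRP8, RRP12, NOP7 and UTP20 kept their calls under every alternative run. Without any scaling factor the median of all features in this comparison shifted by 0.15, in the direction of the rise.

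Genes of the same pathway under other names were counted in W5A against CUP1_WT beside the 20.9% of all features called higher. Of 37 other small-subunit processome and pre-40S factors 32 rose and none fell, with a median of 0.71, among them KRR1 (0.96), NOB1, the endonuclease that makes the mature end of the small-subunit rRNA (0.71), LTV1 (1.17) and NOC4 (1.24). Of 53 other pre-60S assembly factors 34 rose and none fell (median 0.71), with NSA1 at 0.88 and ARX1, a nuclear export factor, at 1.01. Of 14 genes for RNA polymerase I subunits and factors 6 rose (median 0.38), RPA135 and RPA190, which encode its largest subunits, by 1.37 and 0.98. Of 9 other snoRNP proteins 3 rose (median 0.52), among them CBF5, the pseudouridine synthase (1.25), and GAR1 (1.04). Of 11 exosome and TRAMP genes outside the naming rule 2 rose (median 0.26), namely MTR4, an RNA helicase (1.04), and MPP6 (0.40), a share below that of all features. Without CUP1_WT replicate 1 the rises were 16 of 37 small-subunit factors, 20 of 53 pre-60S factors, 4 of 14 RNA polymerase I genes, 2 of 9 snoRNP proteins and 0 of 11 exosome and TRAMP genes, and without W5A replicate 2 the small-subunit rises were 20. The cytosolic ribosomal protein genes rose further, 117 of 121 with a median of 2.22, and their summed level was 16649 to 32210 CPM in W5A against 4582 to 7236 CPM in CUP1_WT.

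Among 14 regulators of ribosome biogenesis genes, those of the PAC element moved in opposite directions in W5A. DOT6 fell by 0.96 on the log2 scale, from a mean of 630 to 309 CPM, and TOD6 rose by 0.98, from 72.3 to 144 CPM. SIN3, a subunit of the Rpd3 histone deacetylase complex, fell by 0.59 and IFH1, an activator of ribosomal protein genes, rose by 0.55. CRF1, a corepressor of ribosomal protein genes, also rose. The PAC core was found before 22 of 44 genes called in W5A (50%) and before 1 of 9 not called (11.1%). In del110_155 against CUP1_WT it was found before 10 of 25 called (40%) and 13 of 28 not called (46.4%), and in CUP1_WT against pho92_null before 6 of 16 (37.5%) and 17 of 37 (45.9%). The RRPE core was found before 23 of 44 called (52.3%) and 3 of 9 not called (33.3%) in W5A, before 14 of 25 (56%) and 12 of 28 (42.9%) in del110_155, and before 10 of 16 (62.5%) and 16 of 37 (43.2%) in CUP1_WT against pho92_null. These splits were not tested.

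Meiotic genes also differed in W5A. All 16 middle meiotic genes of the marker list, such as NDT80, their transcriptional activator, fell in W5A against CUP1_WT with a median of -3.81, and their summed level was 949 to 2602 CPM in W5A against 8745 to 42615 CPM in CUP1_WT. Of 12 early meiotic genes 1, IME2, fell (-1.27). Within CUP1_WT, the middle meiotic sum was 42615, 24918 and 8745 CPM in replicates 1, 2 and 3, while the 53 genes summed to 1532, 1713 and 2029 CPM. Within W18A, the middle meiotic sum ran from 7325 to 36673 CPM, while the 53 genes stayed between 1667 and 1728 CPM. Mean middle meiotic sums in W177A and del28_52 were 8234 and 8101 CPM, and the 53 genes averaged 1702 and 1696 CPM there. In pho92_null the middle meiotic sum was 7024, 2466 and 1181 CPM, and 15 of the 16 genes were higher in CUP1_WT than in pho92_null. The part of these differences, and of the higher PHO92 level of W5A, in the result was not tested. In W5A_W18A_del28_52, in which 9 of the 53 genes rose against CUP1_WT, the middle meiotic sum was 9241 to 14858 CPM.

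The double substitution W5A_W18A showed 28 rises and 1 fall against CUP1_WT, where 16.7% of all features were called higher and 16.5% lower. The median was 0.64 against 0.03, and NOP58 (1.15 ± 0.33) and UTP13 (1.15 ± 0.32) led. RRP43 was again the gene that fell (-0.69 ± 0.23), at 40.9, 37.0 and 44.1 CPM. The 29 calls were 2 without CUP1_WT replicate 1, 18 without CUP1_WT replicate 2 and 14 without W5A_W18A replicate 2, and the fit of the 6 libraries gave 33 rises. Its middle meiotic genes summed to 1203 to 1871 CPM. The W5A and W5A_W18A comparisons share the CUP1_WT libraries.

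Without residues 110 to 155, 25 of 53 genes rose against CUP1_WT and none fell, where 22.3% of all features were called higher and 23.5% lower. The median was 0.42 against 0.02 over all features. The rises took in 3 of 6 UtpA genes, 2 of 4 UtpB genes, 1 of 2 UtpC genes, 4 of 5 snoRNP genes, 5 of 13 other small-subunit factors, 2 of 3 factors of both subunits, 7 of 13 large-subunit factors and 1 of 7 exosome subunits, RRP6.

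RRP5 was at 74.3, 83.0 and 97.5 CPM in del110_155 against 26.5, 31.7 and 36.3 CPM in CUP1_WT. All del110_155 libraries were more than 2-fold above all CUP1_WT libraries, and the difference was 1.43 ± 0.22 (adjusted p = 1.83e-05). UTP13 was at 30.2, 36.2 and 56.5 CPM against 12.3, 13.3 and 18.4 CPM, a difference of 1.45 ± 0.32 (adjusted p = 0.000658). NOP53 was at 39.8, 45.0 and 68.6 CPM against 17.7, 18.7 and 23.2 CPM, a difference of 1.33 ± 0.22 (adjusted p = 4.61e-05). For each of the 3 genes replicate 3 was the highest, and the groups stayed apart without it. NOP58 rose by 1.42 ± 0.33, UTP4 by 1.39 ± 0.26, NOP1 by 1.26 ± 0.33 and RRP9 by 1.19 ± 0.37. NOP2, at 83.2, 92.3 and 120 CPM, differed from CUP1_WT by 0.06 ± 0.22 and did not pass.

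The 25 calls in del110_155 were 12 without its replicate 3, which was low in early meiotic genes, and 12 without CUP1_WT replicate 1. RRP5, UTP13, NOP53 and UTP4 kept their calls under every alternative run. In this strain 15 of 16 middle meiotic genes and 6 of 12 early meiotic genes fell, 34 of 121 ribosomal protein genes rose, and PHO92 was at 8164 ± 454 CPM. The part of these differences in the result was not tested. A fit of the 6 libraries alone gave 4 rises. Of the other pathway genes, 19 of 37 small-subunit factors and 31 of 53 pre-60S factors rose and none fell. Without del110_155 replicate 3 these rises were 7 and 15, 4 of 121 ribosomal protein genes rose, and 14 middle meiotic genes and 1 early meiotic gene fell. Without CUP1_WT replicate 1 or replicate 2 the small-subunit rises were 9 and 10, the pre-60S rises 19 and 24, and the ribosomal protein rises 15 and 11. Without del110_155 replicate 2, 68 ribosomal protein genes rose. Early meiotic falls were 3 without CUP1_WT replicate 2.

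W5A and del110_155 were compared with each other directly, a comparison chosen after the data were examined. Of the 53 genes 7 were higher in W5A and 1 lower, where 9.13% of all features were called higher and 7.81% lower. NOP2 differed by 1.12 ± 0.22 (adjusted p = 0.00107) with W5A libraries at 163 to 256 CPM and del110_155 libraries at 83.2 to 120 CPM, which do not overlap. RRP3 differed by 1.03 ± 0.34, NOP15, a large-subunit factor, by 0.78 ± 0.23, and RRP14, RRP1, NOP8 and RRP4 by between 0.38 and 0.63. NOP53 was lower in W5A, by -0.65 ± 0.22 (adjusted p = 0.0436). The 8 calls were 1, 2 and 13 without W5A replicates 1, 2 and 3, and 3 and 14 without del110_155 replicates 2 and 3. NOP2 kept its call except in the fit of the 6 libraries alone.

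**Figure D5:**
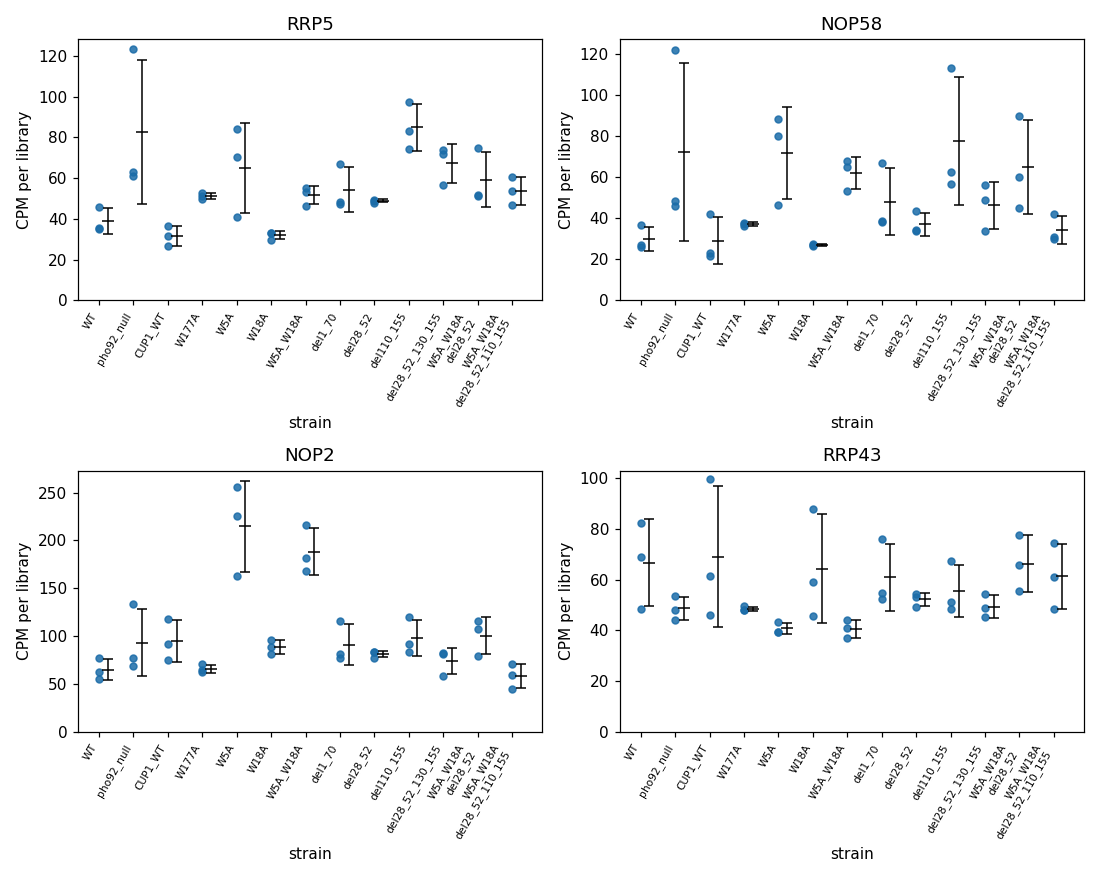
CPM of RRP5, NOP58, NOP2 and RRP43 in each library (points) by strain, with the mean and SD of 3 libraries beside them. RRP5 is high in del110_155 (74.3 to 97.5 CPM) and low in CUP1_WT (26.5 to 36.3 CPM) and W18A. NOP2 is high in W5A and W5A_W18A, and RRP43 spreads widely within CUP1_WT (45.9 to 99.9 CPM), WT and W18A.

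The W177A strain, altered in the m6A-binding pocket, gave 4 rises and 2 falls among the 53 genes against CUP1_WT, with a median of 0.02, where 13.5% of all features were called higher and 7.04% lower. UTP4 was higher by 0.75 ± 0.26, RRP5 by 0.71 ± 0.22, NOP53 by 0.66 ± 0.22 and RRP15 by 0.59 ± 0.15. RRP5 was at 51.2, 49.9 and 52.6 CPM, all above the CUP1_WT libraries. UTP15 was lower by -0.96 ± 0.33 and UTP6, a UtpB subunit, by -0.75 ± 0.24. UTP15 was at 11.9, 17.0 and 22.7 CPM in W177A against 24.8, 33.3 and 41.1 CPM in CUP1_WT. The 6 calls were 1 without CUP1_WT replicate 1 or replicate 2, and 2 without any 1 of the W177A libraries. With RLE size factors the split was 2 rises and 2 falls. No middle meiotic gene was called in this comparison (median -1.94). Of the other pathway genes, 1 of 37 small-subunit factors and 7 of 53 pre-60S factors rose.

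Set against W177A directly, in comparisons also chosen after the data were examined, W5A had 37 of 53 genes higher and none lower, where 17.8% of all features were called higher and 16.9% lower. The median was 0.84, and the greatest differences were those of RRP3 (2.08 ± 0.34, adjusted p = 3.78e-05), NOP56 (1.80 ± 0.32) and NOP2 (1.67 ± 0.22). RRP3 was at 11.5, 11.8 and 12.8 CPM in W177A and 34.3 to 62.5 CPM in W5A. RRP5 (0.28 ± 0.22), UTP4 (0.05 ± 0.26), NOP53 (0.02 ± 0.22) and RRP15 (-0.17 ± 0.15), which were higher in W177A than in CUP1_WT, did not pass here. Between 25 and 40 genes were called when any 1 library was left out. Against W177A, del110_155 had 14 genes higher and none lower, where 5% of all features were called higher and 6.3% lower, led by RRP9 (1.29 ± 0.37) and UTP13 (1.15 ± 0.32). That count was 0 without W177A replicate 1, W177A replicate 2 or del110_155 replicate 3, 9 without W177A replicate 3, and 33 and 22 without del110_155 replicates 1 and 2. With the replicate number as a block it was 31, and in a fit of the 6 libraries alone it was 0. Same-numbered libraries of these strains deviated together, with correlations of 0.42, 0.20 and 0.36.

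The other deletions gave few calls among the 53 genes against CUP1_WT, in each direction a share below that of all features. In del1_70, 3 rose and none fell, where 6.68% of all features were called higher and 2.59% lower, namely RRP5 (0.78 ± 0.22), RRP15 (0.73 ± 0.15) and RRP8 (0.60 ± 0.17). In del28_52, 3 rose and 2 fell, where 11% were called higher and 8.27% lower, with RRP5 (0.64 ± 0.22) and UTP20 (0.52 ± 0.17) higher and UTP15 (-1.11 ± 0.33) and UTP6 (-0.88 ± 0.24) lower. With the replicate number as a block this count was 8, and a fit of the 6 libraries alone gave 3 rises and 5 falls. In del28_52_130_155, 5 rose and 1 fell, where 12.4% were called higher and 9.18% lower, led by RRP5 (1.09 ± 0.22) and UTP4 (0.99 ± 0.26), with UTP6 lower (-0.70 ± 0.24). RRP5 was at 48.9, 48.0 and 49.5 CPM in del28_52 and at 73.6, 56.4 and 71.7 CPM in del28_52_130_155, above the CUP1_WT libraries in both strains. The counts in del1_70 were 1 without CUP1_WT replicate 1, CUP1_WT replicate 2 or del1_70 replicate 3, and 5 without del1_70 replicate 2, and 0 in a fit of the 6 libraries alone. In del28_52 they were 3, 2 and 0 without its replicates 1, 2 and 3, and 3 without CUP1_WT replicate 2. The del28_52_130_155 count was 3 without CUP1_WT replicate 1, and its split was 5 rises and 2 falls with RLE size factors.

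Adding the deletion of 28 to 52 to the double substitution gave 9 rises and no fall against CUP1_WT, where 8.13% of all features were called higher and 3.41% lower. RRP9 (1.23 ± 0.37) and NOP58 (1.17 ± 0.33) led, and the count was 1, 3 and 2 without CUP1_WT replicate 1, CUP1_WT replicate 2 and W5A_W18A_del28_52 replicate 2, and 0 with only the compared strains in the fit. Against W5A_W18A directly, 4 genes were lower and 2 higher, where 9.02% of all features were called higher and 7.59% lower. NOP2 was lower by -0.91 ± 0.22, at 79.5, 115 and 107 CPM against 181, 216 and 168 CPM, and NOP15 by -0.73 ± 0.23, whereas UTP18 (0.86 ± 0.30) and RRP43 (0.69 ± 0.23) were higher. With RLE size factors the split was 0 higher and 5 lower, and with only the compared strains it was 2 higher and 9 lower. The 6 calls were 1 without W5A_W18A replicate 1, W5A_W18A replicate 2 or W5A_W18A_del28_52 replicate 1, and 3 without W5A_W18A_del28_52 replicate 3. The log2 difference of this strain from CUP1_WT was also set against the sum of the differences of W5A_W18A and del28_52. The departure from that sum passed for 3 genes, where 8.87% of all features passed above it and 3.68% below, namely UTP18 (1.58 ± 0.42), RRP43 (1.02 ± 0.32) and UTP20 (-0.73 ± 0.24). That count was 0 without CUP1_WT replicate 1, CUP1_WT replicate 2, W5A_W18A replicate 2 or del28_52 replicate 3. It was 1 without W5A_W18A replicate 1, del28_52 replicate 1, del28_52 replicate 2 or W5A_W18A_del28_52 replicate 1, and 6 without CUP1_WT replicate 3.

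The strain with both substitutions and both deletions in its titles gave 2 rises and 2 falls against CUP1_WT, where 8.49% of all features were called higher and 4.47% lower. RRP5 (0.77 ± 0.22) and RRP15 (0.49 ± 0.15) were higher and UTP15 (-1.05 ± 0.33) and NOP2 (-0.69 ± 0.22) lower. The count was 0, 2 and 1 without its replicate 2, its replicate 3 and CUP1_WT replicate 2, and 2 without CUP1_WT replicate 1 or 3. Against CUP1_WT and against del110_155 alike, a fit of only the compared strains gave 0 calls. Against del110_155 directly, 32 of 53 genes were lower and none higher, where 16% of all features were called higher and 14.9% lower, with a median of -0.68. UTP5, a UtpA subunit, was lower by -1.27 ± 0.40 and UTP13 by -1.22 ± 0.32. The 32 calls were 0 without del110_155 replicate 3, 11 without W5A_W18A_del28_52_110_155 replicate 1 and 1 without its replicate 2. This strain also had the lowest PHO92 level among the copper-induced strains, and its middle meiotic genes summed to 5143 to 31270 CPM against 320 to 1992 CPM in del110_155. The part of these differences in the result was not tested.

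Against pho92_null, W5A was the strain with the most rises, 13 of 53 with none lower, where 7.76% of all features were called higher and 6.82% lower. NOP2 (1.24 ± 0.22, adjusted p = 0.000343) and UTP15 (1.15 ± 0.33) led, and NOP2 was at 69.3, 134 and 77.0 CPM in pho92_null, all below the lowest W5A library. RRP5, at -0.33 ± 0.22, did not pass. The 13 calls were 3, 20 and 3 without pho92_null replicates 1, 2 and 3, and 3 and 2 without W5A replicates 1 and 2. A fit of the 6 libraries alone gave 0. W5A_W18A had 4 rises, where 4.91% were called higher and 5.6% lower, again with NOP2 (1.07 ± 0.22) and UTP15 (1.08 ± 0.33), and 14 without pho92_null replicate 2, 1 without pho92_null replicate 3 or its own replicate 2, and 2 without its own replicate 1 or 3. Fitting only the 6 libraries compared left 1 call.

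The other strains showed few calls against pho92_null. W5A_W18A_del28_52_110_155 had 6 falls, where 4.32% of all features were called higher and 7.41% lower, led by RRP3 (-1.16 ± 0.34) and UTP8 (-1.03 ± 0.34), and the count was 25 and 0 without pho92_null replicates 1 and 2, and 1, 0 and 16 without its own replicates 1, 2 and 3. W177A had 1 fall, RRP6 (-0.73 ± 0.22), where 1.42% of all features were called higher and 3.41% lower. The 1 fall in del1_70 was also RRP6 (-0.78 ± 0.22), where 3.78% were called higher and 6.83% lower. In del28_52 the 1 fall was NOP19, a processome subunit (-0.56 ± 0.16), where 0.993% were called higher and 3.51% lower, and with the replicate number as a block there were 7 falls. No gene was called by limma in del110_155, del28_52_130_155 or W5A_W18A_del28_52, where 0.205%, 3.42% and 0.925% of all features were called. At an unadjusted p under 0.05 these strains had 2, 6 and 1 genes, and limma-voom called 0, 1 and 0. The shares of all features for these counts are not given. Without pho92_null replicate 1 the counts in W177A, del1_70, del28_52 and del28_52_130_155 were 15, 4, 13 and 2. In fits of the 6 libraries compared, W5A_W18A_del28_52_110_155, W177A, del1_70 and del28_52 had 0 calls. The single call was lost in W177A without pho92_null replicate 2 or any W177A library. In del1_70 it was lost without pho92_null replicate 2, pho92_null replicate 3 or del1_70 replicate 1, and in del28_52 without pho92_null replicate 2, pho92_null replicate 3 or any del28_52 library.

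Across strains, RRP5 and NOP2 show how the order of strains differs from gene to gene. RRP5 was lowest in CUP1_WT (31.5 ± 4.9 CPM) and W18A (32.0 ± 1.9 CPM), then WT (38.9 ± 6.2 CPM), and from 48.8 to 84.9 CPM in the other strains, with del110_155 and pho92_null (82.6 ± 35.5 CPM) at the top and not apart beyond their spread. NOP2 was lowest in W5A_W18A_del28_52_110_155 (58.6 ± 12.9 CPM), WT (65.1 ± 10.8 CPM) and W177A (66.1 ± 4.1 CPM), which did not differ beyond their spread, lay between 74.3 and 101 CPM in 8 strains, and was highest in W5A_W18A (188 ± 25 CPM) and W5A (215 ± 47 CPM).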

How the data were processed

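The authors deposited 1 table of whole-number values per feature for 39 libraries, read here as counts from their values; how they were made is not given in the sources used here. The submitters' processing notes name STAR 2.7.10a, RSEM 1.3.1 and DESeq2 1.48.1 without their roles, and the genome build is not given. Of 6186 features, 5630 matched a locus tag of RefSeq R64. Features with at least 10 counts per median-sized library in 3 libraries and 15 counts in all were tested, 5840 in number. Log2 CPM (TMM factors, prior count 2) of all 39 libraries were fitted together with limma 3.58.1 in R 4.3.3, with a trended prior and Benjamini-Hochberg adjustment over all features, and called at an adjusted p under 0.05. The test was run on simulated counts with a fixed spread, without replicate effects or single libraries that stand apart. That check does not cover these traits of the data. Depth ran from 15928411 to 37186964 counts. Errors of CPM are the SD of a strain's 3 libraries. Errors of log2 differences are standard errors of the fit, which uses 1 spread per gene shared over all 39 libraries. They do not measure the scatter of the compared strains alone. The members and lists were chosen with earlier results of these data known. Genes named are anchors of each role, the greatest changes in each comparison and the extremes of level and range; RRP14, RRP1, NOP8, NOP15, UTP18 and a few others were named after their values were seen. Comparisons of W5A, W177A, del110_155 and the combined strains with each other were added after seeing the data. Same-numbered libraries deviated together in 9 of 23 comparisons and in 2 of the 5 added ones, each pair's correlation being over 0.1. Alternatives were RLE size factors, plain CPM, no low-count filter, a prior count of 0.5, limma-voom, the compared strains alone, a replicate block and leaving out each library. The HO gene is not analysed here.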

Additional observations from a re-analysis of the deposited data

Results flagged for a closer look

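The strains' differences from CUP1_WT were tested against each other for some pairs, by limma with Benjamini-Hochberg adjustment. Between W5A and W177A 37 of 53 genes were called, where 17.8% of all features were called higher and 16.9% lower. Between del110_155 and W177A 14 were called, where 5% were called higher and 6.3% lower. Between W5A and del110_155 8 were called, 13.2% of the 53 genes being higher in W5A and 1.9% lower. Of all features 9.13% were called higher in W5A and 7.81% lower. The departure of W5A_W18A_del28_52 from the sum of W5A_W18A and del28_52 passed for 3 genes, a share below that of all features, of which 8.87% passed above the sum and 3.68% below. It was 1.58 for UTP18, 1.02 for RRP43 and -0.73 for UTP20 on the log2 scale. Groups of 3 libraries are too small for a test of single libraries that stand apart.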

How the results depend on the processing

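No log2 difference of a named gene that was called changed sign under any alternative run, but the balance of calls turned in del28_52 against CUP1_WT, from 3 higher and 2 lower to 3 higher and 5 lower with only the compared strains. Counts here are of the 53 genes called, in either direction. Shares of all features are from the main fit and are not given for the alternative runs. Whether other features lost or gained calls alike cannot be told from these counts.

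When each library was left out in turn, the lowest and highest counts against CUP1_WT were 1 and 6 in W177A, 19 and 47 in W5A, 0 and 0 in W18A, 2 and 35 in W5A_W18A, 1 and 5 in del1_70, 0 and 4 in del28_52, 12 and 28 in del110_155, 3 and 8 in del28_52_130_155, 1 and 12 in W5A_W18A_del28_52, and 0 and 3 in W5A_W18A_del28_52_110_155. Against pho92_null they were 6 and 22 in CUP1_WT, 3 and 30 in WT, 0 and 15 in W177A, 2 and 20 in W5A, 5 and 22 in W18A, 1 and 14 in W5A_W18A, 0 and 4 in del1_70, 0 and 13 in del28_52, 0 and 0 in del110_155, 0 and 2 in del28_52_130_155, 0 and 0 in W5A_W18A_del28_52, and 0 and 25 in W5A_W18A_del28_52_110_155. They were 0 and 1 for CUP1_WT against WT, 0 and 6 for the departure from the sum, 25 and 40 for W5A against W177A, 1 and 14 for W5A against del110_155, 0 and 33 for del110_155 against W177A, 1 and 4 for W5A_W18A_del28_52 against W5A_W18A, and 0 and 37 for W5A_W18A_del28_52_110_155 against del110_155.

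With only the compared strains in the fit, which leaves fewer samples to estimate the spread, the counts against CUP1_WT were 3 in W177A, 0 in del1_70, 8 in del28_52, 4 in del110_155, 0 in W5A_W18A_del28_52 and 0 in W5A_W18A_del28_52_110_155. Against pho92_null they were 3 in CUP1_WT, 4 in W18A, 1 in W5A_W18A, and 0 in WT, W177A, W5A, del1_70, del28_52 and W5A_W18A_del28_52_110_155. They were 0 for W5A against del110_155, del110_155 against W177A and W5A_W18A_del28_52_110_155 against del110_155, and 11 for W5A_W18A_del28_52 against W5A_W18A.

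Libraries of 1 number correlated in their deviations at a mean of 0.29 and others at -0.14. These means are not independent, since deviations from a strain's mean cancel over its libraries. A replicate block gave 5 in del1_70, 8 in del28_52 and 14 in W5A_W18A_del28_52 against CUP1_WT. Against pho92_null it gave 4 in W177A, 7 in del28_52, 1 in del110_155, 2 in del28_52_130_155 and 17 in W5A_W18A_del28_52_110_155. It gave 31 for del110_155 against W177A and 10 for W5A_W18A_del28_52 against W5A_W18A, and moved no other count by over 1.5 times.

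Against pho92_null, limma-voom gave 0 in W177A, 0 in del28_52, 1 in del28_52_130_155 and 2 in W5A_W18A_del28_52_110_155, RLE size factors gave 2 in del28_52 and no low-count filter gave 0 in del28_52. For these values the cause was not tested. Plain CPM moved the median of the 53 genes in W5A_W18A against CUP1_WT from 0.64 to 0.83, where it shifted the median of all features by 0.19. Across comparisons that shift ran from -0.20 to 0.19.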
